A study of Mus musculus with 6 samples.

Results

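Untreated wild-type bone marrow-derived macrophages were ranked by the transcripts of 4 MHC class II genes, Cd74, H2-Aa, H2-Ab1 and H2-Eb1, and the 79 highest of 238 cells were compared with the 79 lowest. The cells were thus chosen by their UMIs (unique molecular identifiers, which count captured transcripts) of these 4 genes: the score of a cell was their sum divided by all UMIs of that cell. Scores and levels are given as CPM, counts scaled to 1000000 UMIs. Cells with more than 25000 UMIs were left out, which removed 1 of 239 cells, and cells with equal scores were ordered as the matrix lists them. The whole series held 1362 cells in 6 samples. The score genes chose the cells, so their values are described only, and everything else was read from other genes.

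The cells came from mice with creERT2 at both rosa26 alleles, and they were grown from bone marrow in L929-conditioned medium and sorted singly for MARS-seq, a plate-based single-cell RNA-seq method. The wild-type cells used here had an intact Rad21 gene, were not given lipopolysaccharide (LPS), and were grown in the 4-hydroxy-tamoxifen-containing medium that induced Rad21 deletion in the Rad21-/- cells. The other samples were untreated Rad21-/- cells and cells of both genotypes given LPS (10 ng/ml) for 2 h or for 8 h. Each condition was 1 sample and the number of mice behind it was not given, so cells were not treated as replicates and no p-value was computed.

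MHC class II molecules are pairs of alpha and beta chains that carry peptides from the endosomal pathway to the cell surface for recognition by CD4+ T cells. Cd74, the invariant chain, occupies the peptide groove during transport, and H2-DM helps to exchange its remnant for peptide. In macrophages these genes are held low at rest and are induced by interferon gamma through the transactivator Ciita, whereas dendritic cells and B cells express them constitutively.

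The promoters are shown because the score adds up genes that are known to share a regulatory module, the X and Y boxes bound by RFX and NF-Y. The windows run from position -130 to -21 relative to the RefSeq transcript start on GRCm38.p6, all lie upstream of the gene, and H2-DMb1 is added as a class II gene outside the score. Capitals mark 2 motifs searched on the printed strand, the X box core TAGNNACNNATG and the Y box core TGATTGG. H2-Aa at chr17:34287844-34287953 on the minus strand, H2-Eb1 at chr17:34305737-34305846 and H2-DMb1 at chr17:34153061-34153170, both on the plus strand, read as follows.
H2-Aa: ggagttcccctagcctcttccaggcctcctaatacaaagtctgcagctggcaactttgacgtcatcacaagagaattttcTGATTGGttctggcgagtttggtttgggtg
H2-Eb1: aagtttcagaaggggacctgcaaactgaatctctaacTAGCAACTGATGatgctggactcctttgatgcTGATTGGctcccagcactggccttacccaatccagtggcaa
H2-DMb1: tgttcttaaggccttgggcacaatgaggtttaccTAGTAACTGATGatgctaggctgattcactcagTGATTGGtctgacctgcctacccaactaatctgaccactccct
The H2-Eb1 window held the X core starting at -93 and the Y core starting at -61, and the H2-DMb1 window held them at -96 and -63. The H2-Aa window held the Y core at -50 and no match to these letters of the X core. Of 32851 windows of this length, searched on both strands, 52 (0.158%) held the X core, 1585 (4.82%) the Y core and 4 (0.0122%) both. A match describes the letters only.

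The label of MHC class II-high cells was not borne out by the score. Of the 238 cells, 183 had no UMI of any of the 4 genes, and 55 (23.1%, 95% Clopper-Pearson interval 17.9 to 29) had at least 1. Among these 55 cells, 39 had 1 UMI, 8 had 2, 3 had 3 and 3 had 4 to 8. The other 2 cells had 99 and 27 UMIs, which was 126 of all 208 score UMIs (60.6%). Their scores were 29614 and 5904 CPM, against 1208 for the next cell and a median of 188 over the 55 cells. Intervals here cover counting error only.

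The top group therefore held all 55 cells with a score UMI and 24 cells without one, and the middle and bottom groups held 80 and 79 cells that were all at 0. The last cell of the top group and the first cell below it both scored 0, as did the cells on either side of the other boundary. Because the cells of the bottom group were not lower than those of the middle group, the groups are called the top and the bottom group by score below.

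**Figure D1:**
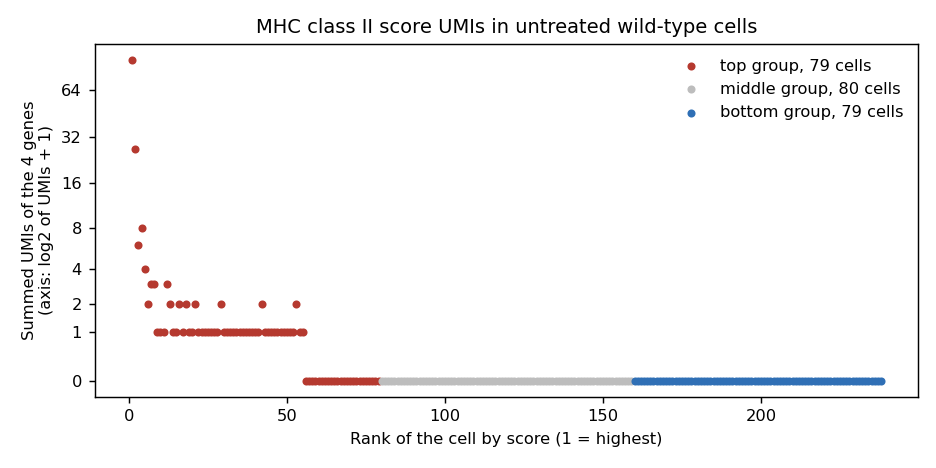
Summed UMIs of Cd74, H2-Aa, H2-Ab1 and H2-Eb1 in each of the 238 untreated wild-type cells (y axis, log2 of UMIs + 1, labelled in UMIs) by rank (x axis), with 1 point per cell coloured by group. The values fall from 99 and 27 UMIs to 1 UMI within the first 55 cells, and all 183 later cells lie at 0 across all 3 groups.

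Cd74, the invariant chain, gave 120 UMIs in 46 cells, which was 58.2% (46.6 to 69.2) of the top group, with 36 in the highest cell. H2-Aa, the alpha chain of I-A, gave 35 UMIs in 8 cells, 25 of them in a single cell. H2-Ab1, its beta chain, gave 27 UMIs in 8 cells with 15 in the highest, and H2-Eb1, the beta chain of I-E, gave 26 UMIs in 4 cells with 23 in the highest. Outside the highest cell, each chain was thus seen mainly as single UMIs.

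The 4 genes were seldom seen together. Cd74 alone was detected in 40 cells, and 15 cells had a UMI of H2-Aa, H2-Ab1 or H2-Eb1, of which 6 also had Cd74. UMIs of at least 2 of the genes were found in 6 cells and of all 4 in 1 cell. Cd74 made up 80.5% (70.3 to 88.4) of the score UMIs in the 53 cells with 1 to 8 UMIs. In the highest cell it made up 36 of 99 UMIs, beside 25 of H2-Aa, 15 of H2-Ab1 and 23 of H2-Eb1, and in the second it made up 18 of 27, beside 3, 6 and 0.

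The library pools moved with the groups. In MARS-seq a pool is a set of wells amplified together, and here it was read from a code in the column names of the matrix that the labels do not describe. The cells came from 8 pools that also held the untreated Rad21-/- cells, and 53 cells of the top group came from pools 1 to 3 against 0 of the bottom group. Pools 4 to 8 gave 26 cells of the top group and all 79 of the bottom group. Pool 1 alone gave 41 of its 46 cells to the top group, 17 with a score UMI and 24 without. These 24 are the first cells without a score UMI in the matrix, so the order of ties set the membership. The groups and the pools cannot be told apart by this ranking.

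**Figure D2:**
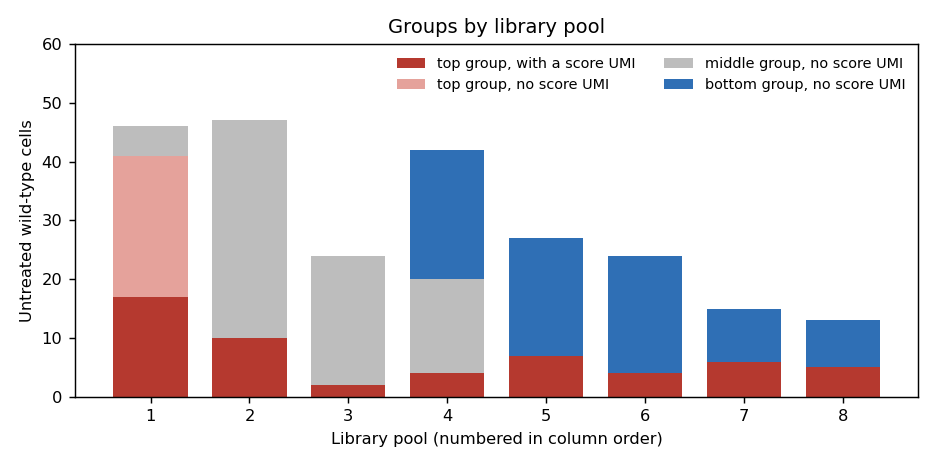
Number of untreated wild-type cells (y axis) in each of 8 library pools (x axis), stacked by group and by whether the cell had a UMI of the 4 genes. The bottom group begins in pool 4, and the 24 cells of the top group without a score UMI are all in pool 1.

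The share of cells with a score UMI also differed by pool. It ran from 8.33% of 24 cells in pool 3 to 40.0% of 15 cells in pool 7. Counting both genotypes, 5 of 46 cells of pool 3 were positive and its highest cell had 1 UMI, whereas 20 of 41 cells of pool 8 (48.8%) were positive and its highest cell, a Rad21-/- cell, had 451 UMIs. In pool 1, where the highest cell had 197 UMIs, 35 of 94 cells were positive. In pool 6 the highest cell, a Rad21-/- cell, scored 42829 CPM and 9 of 50 cells were positive. In pool 7 the highest cell had 6 UMIs and 13 of 34 cells (38.2%) were positive. Transfer of UMIs between wells of a pool was not tested. No cell type known to lack these genes was identified among the sorted cells, so no background share was measured. No pool and cell barcode number occurred more than once, although all 48 barcode numbers of the wild-type cells recurred in other pools, and none was used for untreated cells of both genotypes.

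The groups differed in depth. The cells of the top group had 2519 to 22785 UMIs with a median of 6021, those of the middle group a median of 5904, and those of the bottom group 2602 to 15496 with a median of 5268. The macrophage label held in both groups. Lyz2, which encodes lysozyme, gave 3388 UMIs in the top group and 2791 in the bottom group and was seen in 100% and 98.7% of cells. Csf1r, the receptor for macrophage colony-stimulating factor, was seen in 79.7% and 65.8% of cells, and Adgre1, which encodes F4/80, in 75.9% and 72.2%. The 18 macrophage identity genes summed to 15590 CPM (15253 to 15932) in the top group and 15644 (15276 to 16019) in the bottom group.

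Few other genes differed between the groups. Of 1464 genes with at least 100 UMIs over both groups, 11 (0.751%) were at least 2-fold higher in the top group and 8 (0.546%) at least 2-fold lower, and the median log2 ratio of CPM was -0.07. At 1.5-fold these counts were 50 (3.42%) and 74 (5.05%). Of the 11 higher genes, 3 had under 50 UMIs in the bottom group, and of the 8 lower genes, 6 had under 50 in the top group, so these 9 reached the minimum only through the group where they were higher. None of the 19 genes belonged to the gene lists examined, which covered antigen presentation, macrophage states, interferon and cytokine responses, the cell cycle and metabolism. How many of the 1464 genes the lists held is not given here. With so few genes past 2-fold, a short list would often hold none, so such counts for single lists carry little information. The log2 ratios here were computed with 1 UMI added to each sum.

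Lrrc8c, a subunit of volume-regulated anion channels, gave 272 UMIs in the top group, 221 in the middle group and 88 in the bottom group. This was 520 CPM (460 to 586) against 201 CPM (161.1 to 247) between the top and bottom groups, a log2 ratio of 1.36. Single cells ran from 0 through a median of 437 to 2216 CPM in the top group and from 0 through 137.95 to 831 in the bottom group, so the cells overlapped widely. C230066G23Rik gave almost the same values, 268 and 80 UMIs with a log2 ratio of 1.48 and the same highest cell in the top group, and whether the pair shares reads was not tested.

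Smarcc1, a subunit of the BAF chromatin remodelling complex, gave 342 CPM (294 to 396) in the top group and 164 CPM (128.6 to 207) in the bottom group, with a log2 ratio of 1.05. Bcar3, a signalling adaptor, gave 176 and 71 UMIs, with a log2 ratio of 1.04. Lars2, the mitochondrial leucyl-tRNA synthetase, gave 83 and 28 UMIs (1.28), and Sgpp1, a sphingosine-1-phosphate phosphatase, 83 and 29 UMIs (1.23). The other genes past 2-fold were the unnamed loci Gm10801, Gm43743, Gm26870, Gm10800 and A430010J10Rik, with log2 ratios from 1.10 to 1.34. Gm10801, Gm26870, Gm10800 and Bcar3 were highest in the middle group, whose cells all scored 0, at 1053, 1252, 446 and 425 CPM. In the top group they were at 558, 803, 220 and 337 CPM. The other higher genes were highest in the top group. In each of these 11 genes the lowest cell of both groups was at 0.

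Hmox1, the haem-degrading enzyme haem oxygenase 1, was the best-known gene that was lower in the top group. It gave 80 UMIs there, 74 in the middle group and 149 in the bottom group, with a log2 ratio of -1.14. A single cell of the bottom group held 76 of the 149 UMIs, and the share of cells with a UMI was 58.2% in the top group and 50.6% in the bottom group, the opposite order. Lyrm4, which acts in iron-sulphur cluster assembly, gave 48 and 85 UMIs, a log2 ratio of -1.07. The other 6 were the unnamed loci Gm10039, Gm2965, Gm6745, Gm5566, Gm10689 and Gm14336, with log2 ratios from -1.50 to -1.02. Gm5566 and Gm6745 were lower still in the middle group, at 84.7 and 55.8 CPM against 118.6 and 80.3 in the top group.

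The top group was also read without its positive cells. The 24 cells left and the 79 cells of the bottom group all scored 0 and came from different pools. These are cells of the comparison that picked the 19 genes, so the values are a description. Lrrc8c was at 872 CPM in the 24 cells, a log2 ratio of 2.11, and Smarcc1 had a log2 ratio of 1.86. For Gm10800 the ratio was 0.69, the 1 gene of the 19 within 2-fold.

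Untreated Rad21-/- cells of the same pools, weighted to the pool mix of each group, gave positive log2 ratios for 11 of the 11 higher genes (median 1.07) and negative ones for 8 of the 8 lower genes (median -0.51). Over all 1464 genes, 39.3% of the ratios in this mix were above 0 and 60.7% below. Of the 19 genes, 7 of the higher and 0 of the lower were at least 2-fold apart, where 8 (0.546%) of all genes were 2-fold higher and 2 (0.137%) 2-fold lower. Lars2 gave 1.24 and Lrrc8c 1.07 in this mix, while Sgpp1 gave 0.07 and Hmox1 -0.16. These cells did not enter the ranking, and they shared the untreated state and the culture with the wild-type cells as well as the pools.

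When ties were taken in reverse column order, the bottom group came from pools 1 to 3 and the top group gained cells of pools 6 to 8. Then 14 genes (0.911%) were at least 2-fold higher and 5 (0.326%) lower of 1536. The log2 ratio changed sign in 17 of the 19 genes, the exceptions being Lars2 and Gm10689. The 24 cells of the top group without a score UMI moved to the bottom group. The cells that the top group gained came from the bottom group. The cells that picked the 19 genes were thus exchanged, which favours a change of sign, so these values are a description. Lrrc8c gave -0.87, Smarcc1 -0.92 and Hmox1 1.40. With the groups drawn within each pool, 0 genes (0%) were higher and 2 (0.138%) were lower of 1450.

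**Figure D3:**
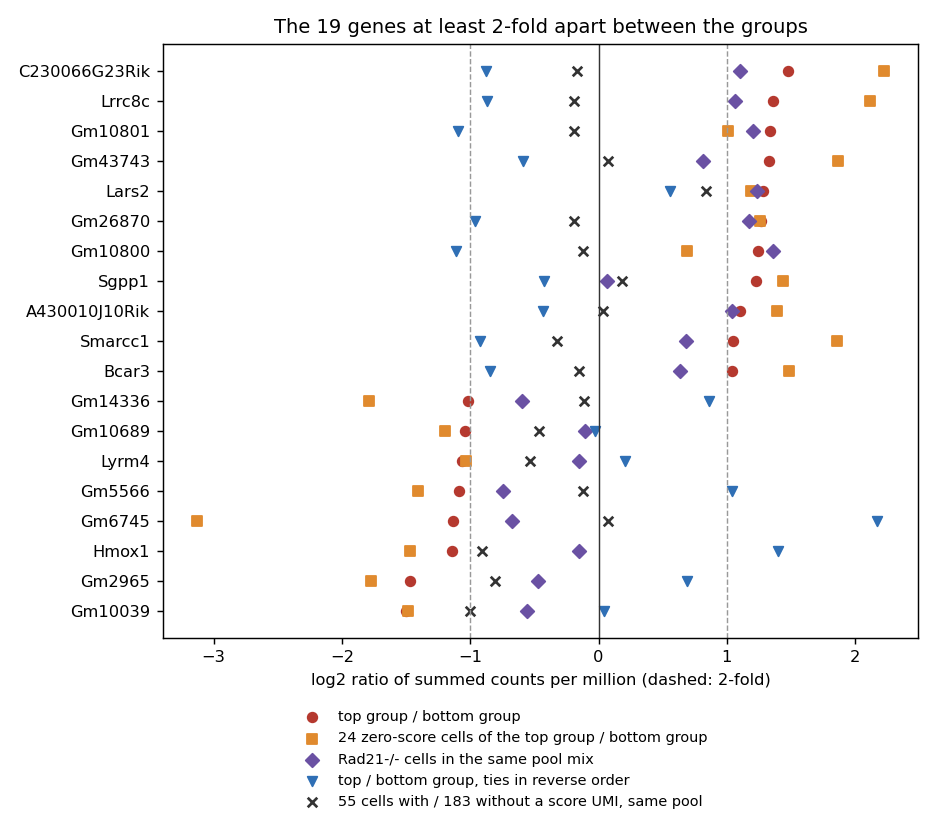
log2 ratio of summed CPM (x axis) for the 19 genes at least 2-fold apart between the groups (y axis), under 5 groupings of cells given by symbol, with dashed lines at 2-fold. The 24 cells without a score UMI are part of the top group that picked the genes, and the reversed order of ties puts them in the bottom group. Rad21-/- cells of the same pools lie on the same side as the groups, reversing the order of ties moves 17 genes across 0, and cells with against without a score UMI in the same pool lie within 2-fold in all 19.

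A comparison that does not rest on ties set the 55 cells with a score UMI against the 183 cells without one. Their UMIs were compared with those expected from the cells without a score UMI in the same pools. Of 2461 genes with at least 100 UMIs, 4 (0.163%) were at least 2-fold higher and 4 (0.163%) at least 2-fold lower, with a median log2 ratio of 0.00, and at 1.5-fold the counts were 62 (2.52%) and 56 (2.28%). None of the 19 genes was past 2-fold here, and the medians were -0.15 for the 11 and -0.50 for the 8.

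Apoe, the lipid carrier apolipoprotein E, gave 346 UMIs in the positive cells against 170.5 expected, a log2 ratio of 1.02, but a single cell held 133 of them. Gm26917 gave 90 UMIs against 37.4 expected (1.25), of which 61 were in 1 cell. The other higher genes were Hacd4, a fatty acid elongation enzyme, with 68 UMIs against 31.4 (1.09), and Cblb, an E3 ubiquitin ligase that restrains lymphocyte and macrophage activation, with 43 against 20.1 (1.06), at most 9 and 14 in a cell. Tmem171, Gm6394, Gm15172 and Gm8995 were lower, with log2 ratios from -1.18 to -1.02. None of these is a gene of antigen presentation.

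The rest of the class II pathway was measured without being used in the score. Of 11 further class II and peptide loading genes in the matrix, 3 reached 100 UMIs and none of these 3 was past 2-fold. Over all 1464 genes, 0.751% were at least 2-fold higher and 0.546% lower. Ctss, the cathepsin that trims the invariant chain, gave 1133 UMIs in the top group and 820 in the bottom group, a log2 ratio of 0.21, and was seen in every cell. Lgmn, an endosomal protease, gave 365 and 255 UMIs (0.26), and Ifi30, which reduces disulphide bonds of antigens, 220 and 205 CPM (0.10). Within pools, the 55 positive cells gave 0.05, 0.35 and 0.31 for Ctss, Lgmn and Ifi30.

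The genes closest to class II function were near the limit of detection. H2-DMa, the alpha chain of the peptide exchange factor, gave 11 UMIs in 11.4% of the top group and 4 UMIs in 5.06% of the bottom group, and H2-DMb1, its beta chain, gave 9 and 9. Ciita, the transactivator, gave 0 UMIs in both groups. Rfx5, Rfxap and Rfxank, the subunits of the X box factor, gave 1, 4 and 12 UMIs in the top group and 1, 6 and 5 in the bottom group. March1, a ubiquitin ligase that removes class II from the surface, gave 33 and 29, and Cd83, which opposes it, 11 and 10. H2-DMa was at 21.04 CPM (10.5 to 37.6) in the top group and 9.13 CPM (2.49 to 23.4) in the bottom group, a log2 ratio of 1.01, and Rfxank at 22.9 (11.9 to 40.1) and 11.4 (3.70 to 26.6), so the counting intervals overlapped in both genes. H2-DMb2, H2-Oa, H2-Ob and H2-Eb2 were not analysed here.

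The class I genes with enough UMIs were within 2-fold between the groups. Of 20 MHC class I and immunoproteasome genes, 10 reached 100 UMIs, none of these 10 was past 2-fold and their median log2 ratio was -0.09. The shares past 2-fold over all 1464 genes were 0.751% higher and 0.546% lower. B2m, the class I light chain, gave 2459 and 1963 UMIs with a log2 ratio of 0.07. The heavy chain genes H2-K1 and H2-D1 gave ratios of 0.03 and -0.15. The co-stimulatory and surface activation genes had 4 of 15 members at 100 UMIs, none of these 4 past 2-fold, with a median of 0.18. Cd86 and Cd80, the ligands of CD28, gave 1 and 10 UMIs in the top group and 1 and 21 in the bottom group, and Cd40 gave 11 and 9.

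Among macrophage activation genes, none of those that reached 100 UMIs was past 2-fold, where 0.751% of all 1464 genes were higher and 0.546% lower. Most members of the interferon and cytokine lists did not reach 100 UMIs. The type I interferon-stimulated list had 11 of 25 members at 100 UMIs and a median log2 ratio of -0.07, with 7418 CPM (7187 to 7655) in the top group and 7967 (7705 to 8236) in the bottom group. The 19 interferon gamma-type GTPase and regulator genes had no member at 100 UMIs and summed to 392 (340 to 450) and 399 (342 to 463) CPM. Of the 22 inflammatory cytokine and chemokine genes, 7 were at 100 UMIs. Together the 22 summed to 2161 CPM (2037 to 2291) in the top group and 2919 CPM (2761 to 3083) in the bottom group. Ccl9, a monocyte chemoattractant, gave 251 and 384 UMIs there, a log2 ratio of -0.87, which is inside 2-fold. Genes of the complement C1q and lipid-handling list gave a median of 0.05 over 14 members, and lysosomal protease and membrane genes 0.08 over 17.

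Mitochondrially encoded transcripts moved with the groups. They summed to 73264 CPM (72533 to 74002) in the top group and 54355 (53667 to 55050) in the bottom group, and 12 of 13 described genes had a log2 ratio above 0, with a median of 0.38. mt-Atp6, a subunit of ATP synthase, gave 1615 and 722 UMIs, a log2 ratio of 0.91. Against cells of the same pool the median of these genes was -0.05. Cytosolic ribosomal protein genes summed to 37984 and 41226 CPM, with a median of -0.12 over 62 genes. The part of RNA content in the differences between the groups was not tested.

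Markers of other antigen-presenting cells were low in both groups. The 11 dendritic cell markers in the matrix had no member at 100 UMIs and 4 at 0 in both groups, and they summed to 159 (126 to 197) and 176 (139 to 220) CPM, with single cells from 0 to 882 in the top group and from 0 to 712 in the bottom group. Irf8 gave 42 and 47 UMIs, Itgax, which encodes CD11c, 2 and 3, and Flt3 0 and 1. The 5 B cell markers summed to 80.3 (57.9 to 109) and 52.5 (33.3 to 78.8) CPM, with Ighm at 23 and 9 UMIs, Ms4a1 at 4 and 1 and Pax5 at 5 and 5. Their part in the score was not tested.

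The remaining lists likewise had no member past 2-fold among those that reached 100 UMIs, where 0.751% of all 1464 genes were higher and 0.546% lower. The 11 monocyte markers, 2 of them at 100 UMIs, summed to 2855 and 3403 CPM, with S100a4 at 1018 and 1022 UMIs and Ccr2 at 6 and 1. Neutrophil and granulocyte precursor markers summed to 13.4 and 4.56 CPM from 7 and 2 UMIs, with 3 of 4 genes at 0 in both. T, NK and mast cell markers summed to 46 UMIs in each group. Stromal, erythroid and megakaryocyte markers summed to 216 and 278 CPM. The mitosis list summed to 2526 CPM (2392 to 2666) and 2239 CPM (2101 to 2383). The DNA replication list summed to 1058 and 1289 CPM. Glycolysis, cholesterol, alternative activation, cytokine receptor, immediate-early, actin and cohesin lists had 0 members past 2-fold among those described, and Ctcf (56 and 87 UMIs, log2 ratio -0.88) was the 1 gene of 11 described in the cohesin list.

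The 2 cells of highest score were read on their own against the UMIs expected at their depth from the 183 cells without a score UMI. They are a cell of pool 5 with 3343 UMIs and a cell of pool 1 with 4573 UMIs. The 183 cells were not matched to these pools. Macrophage identity genes gave 21 UMIs against 52.1 expected in the first cell and 55 against 71.2 in the second. Lysosomal genes gave 27 against 64.1 and 58 against 87.6, and C1q and lipid-handling genes 19 against 64.2 and 43 against 87.9. MHC class I genes gave 58 against 31.3 and 66 against 42.8. Both cells were thus below expectation in the first 3 lists and above it in the last.

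Ly6a and Sepp1 lay on the same side in both cells. Ly6a, which encodes the surface protein Sca-1, gave 6 UMIs against 0.60 and 8 against 0.82. Sepp1, a secreted selenoprotein of macrophages, gave 0 against 3.21 and 0 against 4.39. Dendritic cell markers gave 0 and 1 UMIs and B cell markers 1 and 0. The mitosis list differed between the pair, with 43 UMIs against 8.41 in the first cell and 3 against 11.5 in the second. Leaving both cells out changed none of the counts between the groups, 11 higher and 8 lower of 1462 genes.

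In all 6 samples, 14 of 1345 cells (1.04%) scored at least 5000 CPM, a limit set after the values were seen. They were 7 wild-type and 7 Rad21-/- cells from 12 of 24 pools, including the 2 above. All 4 score genes were seen in 13 of the 14 cells, with Cd74 at 50.2% (47.6 to 52.8) of 1435 score UMIs. Against cells of their own sample scoring under 1000, 35 genes (3.15%) were at least 2-fold higher and 42 (3.78%) lower of 1111 with at least 20 UMIs. At 1.5-fold the shares were 15% and 11.6%, with a median log2 ratio of 0.11. The comparison cells were not matched by library pool, and the part of the pools in these differences was not tested. The minimum was taken over observed and expected UMIs together, so 23 of the 35 higher genes, with under 10 expected, and 26 of the 42 lower genes, with under 10 observed, reached it only through the side where they were higher. H2-DMa gave 18 UMIs in 9 of the 14 cells against 0.53 expected, 6 of them in the wild-type cells, and H2-DMb1 14 against 1.29, 5 of them in the wild-type cells. Ciita gave 4 against 0.01, with 0 in the wild-type cells and 4 in the Rad21-/- cells. H2-DMa, H2-DMb1 and Ciita did not reach the minimum of 20 UMIs and lie outside the 1111 genes.

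Axl, a receptor tyrosine kinase for clearing apoptotic cells, gave 20 UMIs in the 14 cells against 1.60 expected and Ly6a 39 against 6.79, and both are among the 23. Apoe gave 8 against 31.99, C1qa, a chain of complement C1q, 11 against 38.9, and Sepp1 22 against 136. Apoe, with under 10 observed, reached the minimum only through the expected side. The macrophage identity genes gave 466 UMIs against 625 in the wild-type cells and 585 against 496 in the Rad21-/- cells. These sums lie on opposite sides of expectation, but Lyz2, given under other observations, made up much of the Rad21-/- sum. Without the cell with the most UMIs, a Rad21-/- cell, the list gave 771 against 927. Over all 14 cells the 11 dendritic cell markers gave 30 against 12.8 and the 5 B cell markers 11 against 9.81. No gene of these marker lists reached the minimum of UMIs. Without the cell with the most UMIs the higher genes numbered 18 of 889.

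**Figure D4:**
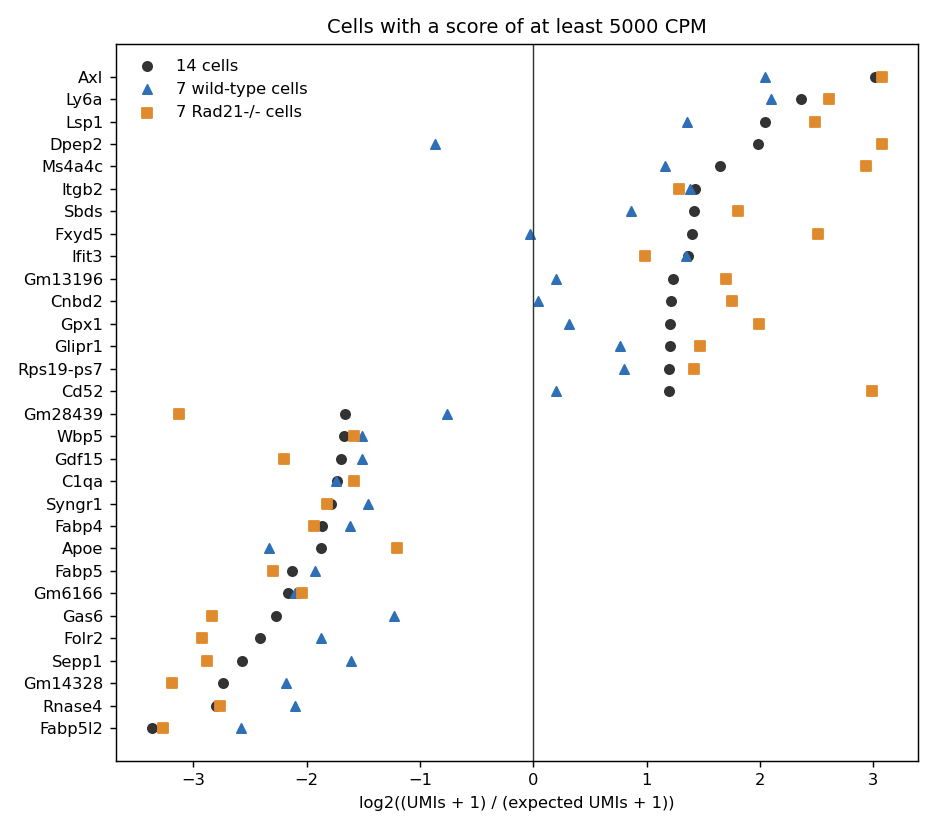
log2 of UMIs + 1 over expected UMIs + 1 (x axis) in the 14 cells scoring at least 5000 CPM, and in the 7 wild-type and 7 Rad21-/- cells among them, for the 15 highest and 15 lowest genes (y axis). The genes were picked from the sum of these 14 cells, which fixes most of the likeness of the genotypes, and Dpep2 and Fxyd5, picked as higher, lie at or left of 0 in the wild-type cells.

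The share of cells with a score UMI was then set beside the other samples. It was 23.1% (17.9 to 29) in untreated wild-type cells and 28.5% (23.1 to 34.3) in untreated Rad21-/- cells, and it lay between 33.2% and 38.7% in the 4 LPS samples. After thinning each cell to 3800 UMIs, which left out 47 of the untreated wild-type cells and 21 to 47 of the others, the shares were 16.2% (11.3 to 22.2), 21.4% (16.1 to 27.4) and 17.9% to 26.9%. The thinned interval of the untreated wild-type cells overlapped that of each other sample. The summed score was 144 CPM (125 to 165) in untreated wild-type cells and 57 without its 2 highest cells. In untreated Rad21-/- cells it was 620 (582 to 659) and 101 without its 4 highest cells.

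**Figure D5:**
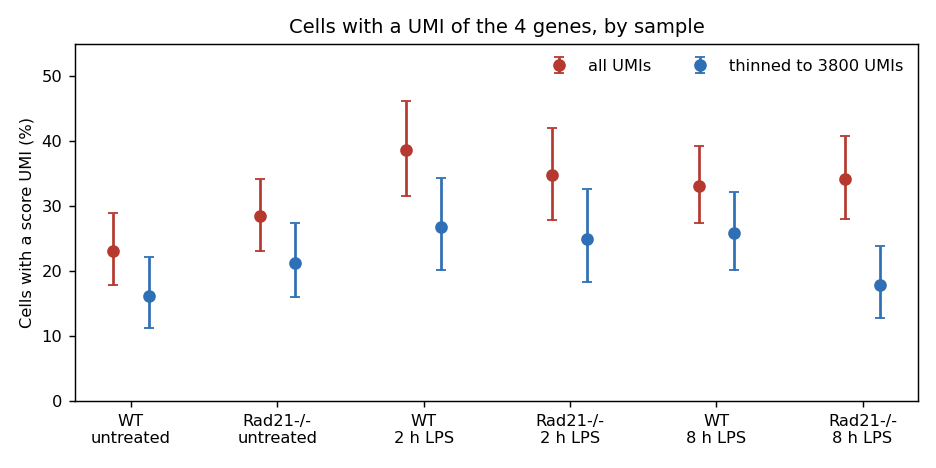
Percentage of cells with at least 1 UMI of Cd74, H2-Aa, H2-Ab1 or H2-Eb1 (y axis) in each of the 6 samples (x axis), with all UMIs and after thinning to 3800 UMIs per cell, and 95% Clopper-Pearson intervals as bars. Untreated wild-type cells are at 23.1% and 16.2%, and the thinned intervals of the 6 samples overlap.

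Applied to the other samples, the same rule filled the top group with positive cells except in untreated Rad21-/- cells, where 76 of 89 were positive. The genes at least 2-fold higher and lower there were 11 (0.673%) and 5 (0.306%) of 1635. In wild-type cells they were 0 (0%) and 0 (0%) of 1139 after 2 h of LPS and 6 (0.361%) and 0 (0%) of 1660 after 8 h. In Rad21-/- cells they were 1 (0.0756%) and 1 (0.0756%) of 1322 after 2 h and 5 (0.245%) and 2 (0.0979%) of 2042 after 8 h. For Lrrc8c the log2 ratios were 0.69 in untreated Rad21-/- cells and 0.34, 0.05, 0.82 and 0.28 in the wild-type 2 h, Rad21-/- 2 h, wild-type 8 h and Rad21-/- 8 h samples. In each of these samples no cell of the bottom group had a score UMI, so column order still chose its cells among ties. Library pools were not separated from the groups in these counts and ratios.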

How the data were processed

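Single wild-type or Rad21-/- macrophages were sorted into 384-well plates for MARS-seq, and the deposited matrix holds counts of UMIs for 18429 genes in 1362 cells of 6 samples. Per the paper's methods, the authors checked reads with FastQC, demultiplexed them by pool and cell barcode, mapped them to GRCm38.p4 and merged duplicate reads by UMI, keeping unambiguously mapped reads and removing empty wells, poorly mapped cells and genes seen in few cells.

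The counts were summed over the cells of each group, scaled to CPM and compared as log2 ratios with 1 UMI added, using Python 3.11.15, numpy 2.4.6, pandas 2.3.3, scipy 1.17.1 and matplotlib 3.10.9. Genes needed 100 UMIs over both groups (20 for the 14 high cells). Sums carry exact Poisson and shares Clopper-Pearson 95% intervals. Expected UMIs were the profile of the comparison cells scaled to each cell's or pool's depth. No doublet caller was run on the singly sorted cells. Named genes were the 15 highest and 15 lowest, list members past 2-fold or up to 3 with the most UMIs, and defining markers; others, such as the genes of the comparison within pools and of the 14 high cells, were chosen after their values were seen. The members and 25 lists were chosen with earlier results of these data known, and the comparisons over ties, within pools, between cells with and without a score UMI and of the 14 cells were added after seeing the data. The scripts were tested on simulated data.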

Additional observations from a re-analysis of the deposited data

How the results depend on the processing

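No paired analysis was possible because each group is 1 sample and the groups are cells of the same sample. The 11 higher and 8 lower genes became 47 and 35 with a minimum of 50 UMIs, and 1554 and 1912 with none. The lower genes numbered 1 with a minimum of 200 UMIs, 5 after centring on the median, 17 between cells above and below the median rank, and 5 with ties reversed. Groups drawn within each library pool gave 0 and 2. A score without Cd74 gave 21 and 38. Cells with against all cells without a score UMI gave 4 and 3, and within the same pool 4 and 4. Leaving out each library pool in turn gave 9 to 13 higher and 3 to 9 lower genes. For the 14 high cells, 3.15% higher and 3.78% lower of 1111 genes became 4.21% and 4.44% of 2614 with a minimum of 10 UMIs, over 1.5 times as many genes, and 2.23% and 3.34% of 359 with 50. A score of at least 1000 CPM gave 1.23% and 1.56% of 3904, and of at least 10000 CPM 8.47% and 9.17% of 567. The wild-type cells alone gave 2.14% and 3.11% of 515 and the Rad21-/- cells alone 10.8% and 12.2% of 436, and without the deepest cell 2.02% of 889 were higher.

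Smarcc1 reversed to -0.36 with groups within pools. With ties reversed, C230066G23Rik gave -0.87, Lrrc8c -0.87, Gm10801 -1.09, Gm43743 -0.59, Gm26870 -0.97, Gm10800 -1.11, Sgpp1 -0.43, A430010J10Rik -0.43, Smarcc1 -0.92, Bcar3 -0.84, Gm14336 0.86, Lyrm4 0.21, Gm5566 1.04, Gm6745 2.17, Hmox1 1.40, Gm2965 0.69 and Gm10039 0.047. Against all cells without a score UMI, C230066G23Rik, Lrrc8c, Gm10801, Gm26870, Gm10800, Smarcc1, Bcar3 and Gm6745 gave -0.047, -0.080, -0.050, -0.0093, -0.048, -0.24, -0.13 and 0.10, and in the same pool -0.17, -0.19, -0.19, -0.19, -0.12, -0.33, -0.15 and 0.072. The reversed order of ties exchanges the library pools of the bottom group and moves cells that picked the genes between the groups. The cause of the other changes was not tested. Of 780 values of the 30 named genes, these 34 reversed, 634 stayed within the counting interval of the value reported and 112 moved beyond it. A minimum of 50 UMIs, of 200 UMIs or of none sets only which genes are counted. The 30 values under each of these settings could not move and are among the 634. Depth limits the score itself: at a median of 5860 UMIs per cell most cells gave 0 or 1 UMI of the 4 genes.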

Other observations

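The 14 cells scoring at least 5000 CPM, 2 of them untreated wild-type cells, were described for further genes, which were chosen after their values were seen. Of genes that act in leukocyte adhesion and the cytoskeleton, Itgb2, the beta 2 integrin chain, gave 23 UMIs against 7.90 expected and Lsp1, an actin-binding protein of leukocytes, 19 against 3.86. Ms4a4c gave 33 against 9.87 and Cd52, a leukocyte surface glycoprotein, 107 against 46.0, of which 62 against 6.94 were in the Rad21-/- cells and 45 against 39.0 in the wild-type cells. Itgb2, Lsp1 and Ms4a4c had under 10 expected UMIs, so they reached the minimum of UMIs only through the observed side. Among dendritic cell and monocyte markers, the aspartic protease gene Napsa gave 13 against 1.7 in 8 cells, Irf8 2 against 6.14, and the chemokine receptor gene Ccr2 6 against 0.11 in 2 cells.

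Genes of resident-type macrophages and lipid handling went both ways. Of 18 genes in the C1q and lipid-handling list, 13 were described, 1 was at least 2-fold higher and 6 lower. Pltp, the phospholipid transfer protein, gave 42 UMIs against 17.9 expected. This was 9 against 9.49 in the wild-type cells and 33 against 8.40 in the Rad21-/- cells. Lpl, lipoprotein lipase, gave 44 against 22.6, of which 23 were in 1 cell. Lpl was at 39 against 18.2 in the wild-type cells and 5 against 4.40 in the Rad21-/- cells. Folr2, the folate receptor beta, gave 3 UMIs against 20.2 expected, Gas6, a ligand of Axl, 15 against 76.1, Rnase4 4 against 33.9, and the fatty acid-binding protein genes Fabp4 and Fabp5 4 against 17.2 and 22 against 99.5. Mrc1, the mannose receptor, gave 9 against 20.7. Folr2, Rnase4, Fabp4 and Mrc1 had under 10 observed UMIs, so they reached the minimum of 20 UMIs only through the expected side. The lysosomal list summed to 1006 UMIs (945 to 1070) against 1579, with 554 against 660 in the wild-type and 452 against 919 in the Rad21-/- cells. Mitochondrially encoded genes gave 2091 UMIs against 2067 in the wild-type cells and 904 against 2316 in the Rad21-/- cells. Lyz2 gave 294 UMIs against 116.3 in the Rad21-/- cells and 127 against 218 in the wild-type cells. The cause of these differences was not tested.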
